A study of Mus musculus with 8 samples.

Results

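The genes described here are 9 macrophage genes that are read together as a FOLR2 resident-like and efferocytic signature, namely *Folr2*, *Mrc1*, *Stab1*, *Cd163*, *Pltp*, *Maf*, *Gas6*, *Mertk* and *Axl*. They were found by gene symbol, and all 9 were among the 18635 genes of the table and among the 13629 genes tested. The members were chosen by what is known of these genes and by the measured fall of *Folr2* between the genotypes in these same samples, together with its place in a stretch of changed genes on chromosome 7. The difference between the genotypes is therefore given for the 9 genes as a description, with its standard error and without a p-value. BMDMs (macrophages grown from bone marrow with L929-conditioned medium) of mice aged 6 to 8 weeks spent 24 h in medium that the murine mesothelioma line AE17 had conditioned (AE17-TCM) and are called TEMs. There were 4 samples of *Phgdh* fl/fl TEMs, whose *Phgdh* alleles are floxed and intact and whose *Cx3cr1* alleles are both wild type. The other 4 were *Phgdh* fl/fl *Cx3cr1*-Cre TEMs, which carry the same floxed alleles and in addition Cre in 1 of the 2 *Cx3cr1* alleles, so that the loss of PHGDH and of an intact *Cx3cr1* allele cannot be told apart. All mice were on a C57BL/6 background, the macrophages were cultured ones rather than those of a tissue, and untreated BMDMs were not analysed here.

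Efferocytosis is the uptake of dying cells by phagocytes. A dying cell exposes phosphatidylserine, which is bound either by receptors directly or by soluble bridging proteins such as GAS6, protein S and MFGE8. GAS6 and protein S couple the dying cell to the receptor tyrosine kinases TYRO3, AXL and MERTK, called TAM receptors after their initials, and MFGE8 couples it to integrins that contain the αV chain. The cholesterol of the engulfed cell then activates the nuclear receptors LXR, which induce lipid efflux genes. FOLR2, a folate-binding protein anchored in the membrane, marks macrophages of a resident type in many tissues and tumors, and is commonly found together with the mannose receptor MRC1 (CD206), STAB1 and CD163. c-MAF, the product of *Maf*, is a transcription factor of such macrophages.

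Reads on genes lay between 38219563 and 47027420 per sample. The values are normalized counts, that is reads of a gene scaled by the size factor of the sample, and levels of different genes are compared only after division by exon length, as FPKM computed from the reads. *Phgdh* had 119, 129, 117 and 105 normalized counts in *Phgdh* fl/fl TEMs and 32.6, 35.3, 14.2 and 26.3 in *Phgdh* fl/fl *Cx3cr1*-Cre TEMs. These groups did not overlap (exact two-sided permutation test, p = 0.0286, the smallest p that 4 samples against 4 allow). The 6 macrophage markers that were checked summed to between 968985 and 1071030 normalized counts in a sample, most of it from *Lyz2*. Of the 6, 3 fell and none rose at a limma adjusted p under 0.05, where 20.3% of all tested genes fell and 20.8% rose. Those that fell were *Fcgr1* (log2 fold change -0.40, limma adjusted p = 7.4e-12), *Itgam* (-0.19, limma adjusted p = 7.0e-06) and *Adgre1* (-0.084, limma adjusted p = 0.00558). The part of this in the results was not tested. Of the markers of other cells, *S100a8* of neutrophils stood highest, with 527 ± 47.9 and 617 ± 27.3 normalized counts (SD, n = 4 each), and the other neutrophil markers were not listed in the table. Each of the lists of dendritic cell, lymphocyte, fibroblast and mesothelial markers, taken by itself, summed to at most 43.8 normalized counts in any sample. Dendritic cell markers lay between 7.24 and 29.6 in *Phgdh* fl/fl TEMs and between 25.9 and 41.7 in *Phgdh* fl/fl *Cx3cr1*-Cre TEMs, and their part in the results was not tested. *Lyve1* and *Timd4*, which mark resident macrophages together with *Folr2* in many tissues, were not listed. Fewer cells of a type and less RNA per cell cannot be told apart in such bulk samples.

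*Folr2* (ENSMUSG00000032725) occupies chromosome 7 from 101839988 to 101857194 (mm10, minus strand). The 4 samples of *Phgdh* fl/fl TEMs had 24878, 24959, 26296 and 26176 normalized counts. With the Cre the 4 values were 10616, 10383, 10691 and 10564. All samples with the Cre lay below all samples without it, and they differed from each other by far less than the genotypes did. The mean dropped from 25577 ± 763 to 10563 ± 131 (SD, n = 4 each), with a ratio of 0.413 and a log2 fold change of -1.28 (standard error, SE, 0.023) on the log2(normalized count + 1) scale, on which all fold changes here are given. Of the 13629 genes tested, 37 had a lower log2 fold change. In FPKM it was 382 ± 10.8 in *Phgdh* fl/fl TEMs and 159 ± 1.85 in *Phgdh* fl/fl *Cx3cr1*-Cre TEMs (SD, n = 4 each), so that it was an abundant transcript of both genotypes, at rank 115 of the tested genes over all samples.

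The RefSeq annotation gives *Folr2* more than 1 start, and its start windows are shown because it is the member with the largest difference, beside those of *Pltp* and *Mrc1*, which differ in opposite directions. Windows run from 250 bases before to 50 bases after the start, are written 5′ to 3′ on the strand of the gene in the build GRCm38.p6, and were available for 8 of the 9 genes, all but *Maf*.
Folr2, chr7:101857141-101857440, minus strand: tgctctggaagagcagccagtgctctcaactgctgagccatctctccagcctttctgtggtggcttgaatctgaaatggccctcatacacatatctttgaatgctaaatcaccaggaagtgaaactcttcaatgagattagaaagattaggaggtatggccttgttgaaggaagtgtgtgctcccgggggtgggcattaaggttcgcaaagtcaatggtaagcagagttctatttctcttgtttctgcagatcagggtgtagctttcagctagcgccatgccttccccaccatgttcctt
Folr2, chr7:101845282-101845581, minus strand: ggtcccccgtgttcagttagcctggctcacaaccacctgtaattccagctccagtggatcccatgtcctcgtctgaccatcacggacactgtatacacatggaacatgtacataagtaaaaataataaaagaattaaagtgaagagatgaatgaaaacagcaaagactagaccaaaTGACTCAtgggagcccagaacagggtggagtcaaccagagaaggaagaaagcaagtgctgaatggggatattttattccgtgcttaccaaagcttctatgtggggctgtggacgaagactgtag
Pltp, chr2:164857659-164857958, minus strand: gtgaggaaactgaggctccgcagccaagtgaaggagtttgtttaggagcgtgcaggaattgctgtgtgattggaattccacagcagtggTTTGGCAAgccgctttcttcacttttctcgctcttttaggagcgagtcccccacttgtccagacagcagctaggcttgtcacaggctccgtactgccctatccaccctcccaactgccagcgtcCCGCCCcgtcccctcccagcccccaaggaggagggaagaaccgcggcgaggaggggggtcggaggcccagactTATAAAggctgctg
Mrc1, chr2:14229164-14229463, plus strand: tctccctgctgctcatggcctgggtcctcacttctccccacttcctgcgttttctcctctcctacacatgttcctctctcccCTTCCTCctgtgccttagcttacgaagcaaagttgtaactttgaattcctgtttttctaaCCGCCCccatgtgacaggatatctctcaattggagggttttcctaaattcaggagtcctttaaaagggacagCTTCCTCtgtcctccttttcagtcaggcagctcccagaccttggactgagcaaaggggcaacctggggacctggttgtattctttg
Capitals mark matches on either strand to 7 motifs chosen with the values known, and no match overlapped another. These were the PU.1 core GAGGAAG, the MARE half-site TGCTGAC bound by Maf proteins, the AP-1 site TGANTCA, the C/EBP site TTGCNNAA, the LXR DR4 element (AGGTCA repeated after 4 bases of any kind), the TATA box TATAAA and the GC box GGGCGG. The first window of *Folr2* held none of them and the second held an AP-1 site, which 7.81% of all 32851 windows hold. The window of *Pltp* held a TATA box (13.6% of all windows), a C/EBP site (10.8%) and a GC box (35.7%). The window of *Mrc1* held 2 PU.1 cores (13.6% of all windows hold at least 1) and a GC box. The MARE half-site, found in 4.67% of all windows, and the LXR element, found in 0.0152%, were found in no window of the 8 genes. A match describes the letters of the window only.

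The neighbours of *Folr2* are described without p-values as well, since its place among changed genes was part of the choice. The run of adjacent tested genes with a negative log2 fold change, whatever its size, spanned 7 genes and 90.2 kb. It went from *Gm10602* through *Folr2*, *Folr1*, *Anapc15*, *Gm22655* and *Tomt* to *Lamtor1*. In *Gm10602* (log2 fold change -0.34, SE 0.14) and *Tomt* (-1.01, SE 0.45) the samples of the genotypes overlapped. *Tomt* had few reads, with means of 16.4 normalized counts in *Phgdh* fl/fl TEMs and 8.58 in *Phgdh* fl/fl *Cx3cr1*-Cre TEMs. *Folr1*, which encodes another folate receptor and lies 1136 bases away from *Folr2*, had 38.1, 38.7, 62 and 42 normalized counts in *Phgdh* fl/fl TEMs and 22.5, 14.5, 17.3 and 24.3 in *Phgdh* fl/fl *Cx3cr1*-Cre TEMs (log2 fold change -1.16, SE 0.23). *Anapc15*, a subunit of the anaphase-promoting complex, was lower, from a mean of 2562 ± 140 to 1352 ± 42.1 (SD, n = 4 each; log2 fold change -0.92, SE 0.038). *Gm22655*, a microRNA gene inside *Anapc15*, had a log2 fold change of -1.22. *Lamtor1*, a subunit of the complex that tethers mTORC1 signaling to the lysosome, was lower, from a mean of 4789 ± 167 to 3588 ± 78.0 (SD, n = 4 each; log2 fold change -0.42, SE 0.028). Genes in the run overlap: *Gm10602* shares exon sequence with *Folr2* on the other strand, *Anapc15* with *Tomt*, and *Lamtor1* with *Lrrc51*, and the strand setting of the counting is not given in the sources used here. *Lrrc51* itself was higher, with a log2 fold change of 1.13 (SE 0.19).

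Of the 30 other tested genes within 1 Mb of *Folr2*, 20 had a limma adjusted p under 0.05, 14 of them higher and 6 lower with the Cre, where 41.0% of all tested genes passed in either direction, 20.8% higher and 20.3% lower. Within 5 Mb it was 65 of 109, 38 higher and 27 lower. Nothing is read from these counts, because the stretch was known when the set was chosen. With eBayes without trend 16 of the 30 passed, and *Clpb*, *P2ry6*, *Nup98* and *Il18bp* were the 4 that no longer did. The largest positive log2 fold change within 1 Mb was that of *Stard10*, a lipid transfer protein, whose mean went from 83.1 ± 15.7 to 301 ± 36.2 normalized counts (SD, n = 4 each; log2 fold change 1.85, SE 0.12). *P2ry2*, a receptor for ATP and UTP, was higher as well (log2 fold change 0.72). Among the tested genes within 1 Mb of the other 8 members, those past the threshold numbered 5 of 12 at *Mrc1*, 11 of 28 at *Stab1*, 15 of 40 at *Cd163*, 17 of 32 at *Pltp*, 1 of 3 at *Maf*, 5 of 22 at *Gas6*, 11 of 27 at *Mertk* and 11 of 29 at *Axl*. An absolute log2 fold change over 0.5 was reached by 8 of the 30 genes around *Folr2* and by 7.23% of all tested genes. Around the other members it was reached by 1 gene at *Mrc1*, 1 at *Stab1*, 3 at *Cd163* and 4 at *Pltp*. At *Maf* it was 1, at *Gas6* 1, at *Mertk* 5 and at *Axl* 1. Nothing is read from these counts either. *Axl* also lies on chromosome 7, from 25757273 to 25788705, and so outside this stretch.

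**Figure D1:**
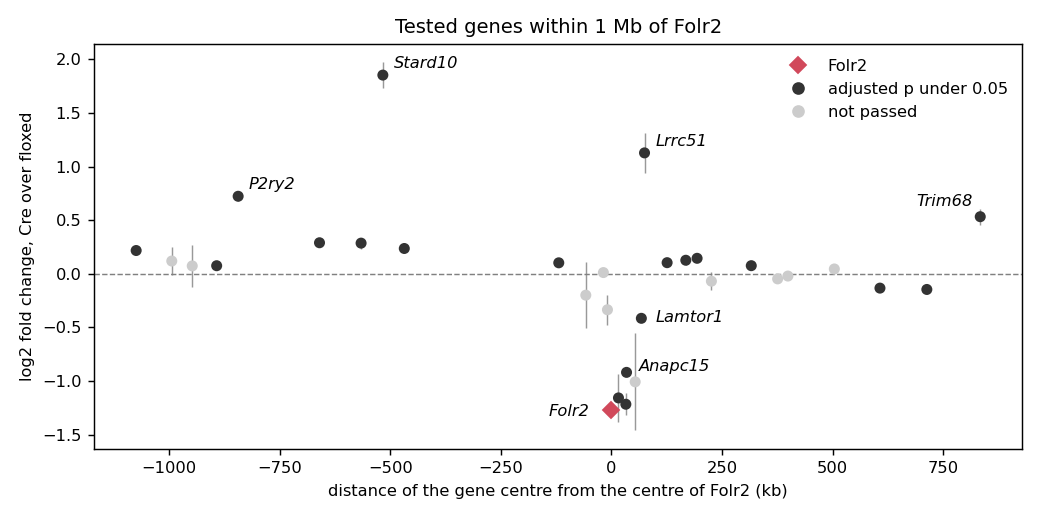
Log2 fold change of *Phgdh* fl/fl *Cx3cr1*-Cre over *Phgdh* fl/fl TEMs (vertical axis, bars give the SE) of *Folr2* and the 30 other tested genes within 1 Mb, by the distance between gene centres in kb (horizontal axis). On one side of *Folr2*, *Folr1* at -1.16 and *Anapc15* at -0.92 sit below 0 with it, and *Lrrc51* at 1.13 sits above. On the other side *Gm10602* is at -0.34, *Inppl1* at 0.011 and *Stard10* at 1.85.

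Among the scavenger and endocytic receptors, *Mrc1* was higher, *Stab1* lower and *Cd163* weakly expressed. *Mrc1* (ENSMUSG00000026712, plus strand of chromosome 2) encodes a lectin that takes up mannosylated glycoproteins and collagen. Its samples had 10735, 10120, 10459 and 10391 normalized counts in *Phgdh* fl/fl TEMs and 12104, 12705, 12943 and 12740 in *Phgdh* fl/fl *Cx3cr1*-Cre TEMs. These values did not overlap between genotypes, and the samples with the Cre were the higher ones, which is the opposite direction to *Folr2* (ratio of the means 1.21, log2 fold change 0.28, SE 0.025). The ratio of *Folr2* to *Mrc1* in FPKM was 10.1 ± 0.388 in *Phgdh* fl/fl TEMs and 3.45 ± 0.111 in *Phgdh* fl/fl *Cx3cr1*-Cre TEMs (SD, n = 4 each). *Stab1* (ENSMUSG00000042286, minus strand of chromosome 14) encodes stabilin-1, a scavenger receptor that also binds phosphatidylserine. It had 13859, 12523, 12846 and 12774 normalized counts in *Phgdh* fl/fl TEMs and 10822, 11375, 11367 and 11066 in *Phgdh* fl/fl *Cx3cr1*-Cre TEMs. Again the groups stood apart, with the samples of the Cre lower (ratio 0.858, log2 fold change -0.22, SE 0.028). *Stab1* shares exon sequence with *Nt5dc2* on the other strand, which had a log2 fold change of -0.071 (SE 0.027).

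*Cd163* (ENSMUSG00000008845, plus strand of chromosome 6) encodes the receptor for hemoglobin bound to haptoglobin. It had 36.3, 48.8, 42.4 and 32.4 normalized counts in *Phgdh* fl/fl TEMs and 45, 35.3, 44.7 and 54.5 in *Phgdh* fl/fl *Cx3cr1*-Cre TEMs, from between 34 and 56 reads a sample. The samples of the genotypes were intermixed. The log2 fold change of 0.16 had a 95% interval from -0.22 to 0.55, so that a difference of that size was not detectable at this depth. In FPKM it was 0.169 ± 0.030 and 0.192 ± 0.033 (SD, n = 4 each), at rank 12654 of the tested genes, so that of the surface receptors by which resident-like macrophages are usually recognized *Cd163* was at a very low level in these BMDMs while *Folr2* and *Mrc1* were abundant.

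Both *Pltp* and *Maf* were lower with the Cre. *Pltp* (ENSMUSG00000017754, minus strand of chromosome 2) encodes the phospholipid transfer protein, which is secreted and moves phospholipids between lipoproteins, and is a known target of LXR. Its samples had 50053, 51815, 51060 and 53041 normalized counts in *Phgdh* fl/fl TEMs and 38697, 39465, 39756 and 38960 in *Phgdh* fl/fl *Cx3cr1*-Cre TEMs. Even the lowest sample without the Cre lay far above the highest sample with it (ratio 0.762, log2 fold change -0.39, SE 0.022). *Pltp* shares exon sequence with *Ctsa*, which is on the other strand, has 44307 normalized counts on average over all samples and had a log2 fold change of 0.063 (SE 0.024). *Maf* (ENSMUSG00000055435, minus strand of chromosome 8) had 25311, 26277, 25613 and 25351 normalized counts in *Phgdh* fl/fl TEMs and 19068, 20623, 20470 and 18146 in *Phgdh* fl/fl *Cx3cr1*-Cre TEMs. All samples with the Cre were lower and were spread more widely, with a coefficient of variation of 6.04% against 1.74% (ratio 0.764, log2 fold change -0.39, SE 0.031). An antisense gene, *Gm15655*, shares exon sequence with *Maf* and had a mean of 45.4 normalized counts in *Phgdh* fl/fl TEMs and 27.5 in *Phgdh* fl/fl *Cx3cr1*-Cre TEMs.

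In the TAM system the ligand gene *Gas6* was higher with the Cre, and of the receptors *Axl* was slightly lower. *Pros1*, the gene of the ligand protein S and no member of the set, was lower (log2 fold change -0.30, SE 0.031). *Gas6* (ENSMUSG00000031451, minus strand of chromosome 8) encodes a ligand of the 3 TAM receptors. It had 11000, 11392, 12183 and 11661 normalized counts in *Phgdh* fl/fl TEMs and 13878, 14412, 14216 and 14306 in *Phgdh* fl/fl *Cx3cr1*-Cre TEMs. Every sample with the Cre was above every sample without it (ratio 1.23, log2 fold change 0.30, SE 0.027). *Axl* (ENSMUSG00000002602, minus strand of chromosome 7), a receptor that binds GAS6, had 3384, 3377, 3539 and 3359 normalized counts in *Phgdh* fl/fl TEMs and 3156, 3064, 3272 and 3068 in *Phgdh* fl/fl *Cx3cr1*-Cre TEMs. This difference was small (ratio 0.920, log2 fold change -0.12, SE 0.029), and the groups lay just apart, with 3359 and 3272 as their nearest samples. *Mertk* (ENSMUSG00000014361, plus strand of chromosome 2), the main receptor for efferocytosis in macrophages, had 4527, 4483, 4472 and 4494 normalized counts in *Phgdh* fl/fl TEMs and 4382, 4627, 4700 and 4530 in *Phgdh* fl/fl *Cx3cr1*-Cre TEMs. Here the samples overlapped, and the log2 fold change of 0.020 had a 95% interval from -0.034 to 0.075. *Tyro3*, the third TAM receptor and no member of the set, had 3.77 ± 2.2 and 5.85 ± 3.38 normalized counts (SD, n = 4 each) and was below the limit for testing. In FPKM the ratio of *Mertk* to *Axl* was 1.53 ± 0.042 in *Phgdh* fl/fl TEMs and 1.69 ± 0.061 in *Phgdh* fl/fl *Cx3cr1*-Cre TEMs (SD, n = 4 each).

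**Figure D2:**
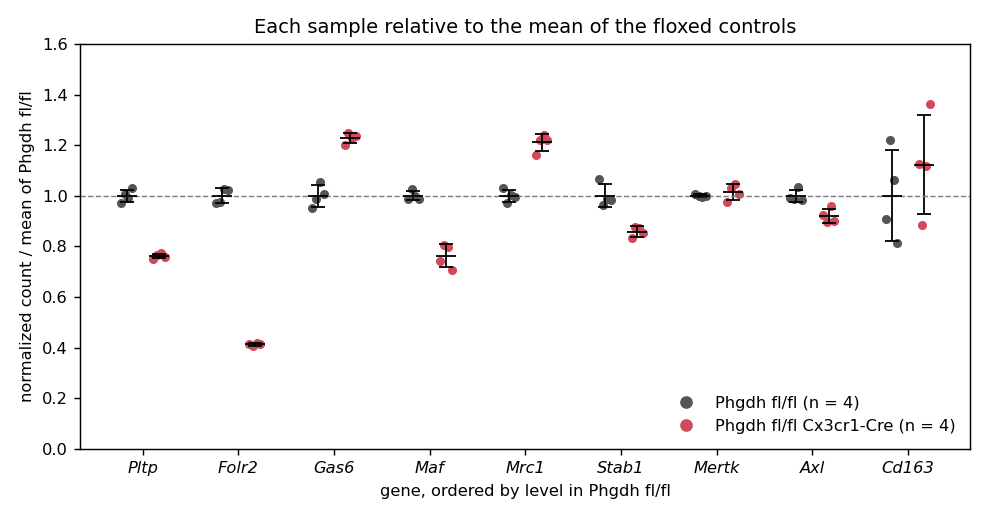
Normalized count of each sample divided by the mean of the 4 *Phgdh* fl/fl samples (vertical axis, starting at 0) for the 9 genes. Points are samples, the long tick is the mean and the bars are 1 SD (n = 4), and the ratio of the means runs from 0.413 for *Folr2* to 1.23 for *Gas6*, with *Mertk* at 1.01.

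As a list, 7 of the 9 genes had a limma adjusted p under 0.05, 5 lower (*Folr2*, *Pltp*, *Maf*, *Stab1* and *Axl*) and 2 higher (*Gas6* and *Mrc1*), where 41.0% of all tested genes passed. In the same 7 genes no sample of one genotype lay within the range of the other, as in 36.7% of all tested genes. Because the set was chosen with this contrast known, nothing is read from these shares. The median log2 fold change of the 9 genes was -0.12, beside -0.0018 over all tested genes. In level per length, *Pltp* stood first with 464 ± 11.02 FPKM in *Phgdh* fl/fl TEMs, followed by *Folr2*, *Gas6* (105 ± 4.33), *Maf* (71.8 ± 1.28), *Mrc1* (37.8 ± 0.926), *Stab1* (29.2 ± 1.35), *Mertk* (23.9 ± 0.156), *Axl* (15.7 ± 0.367) and *Cd163* (SD, n = 4). None of these neighbours overlapped in their samples. With the Cre the order was the same, from *Pltp* at 357 ± 5.17 FPKM to *Cd163*, but *Folr2* had come close to *Gas6* (130 ± 2.37), and *Stab1* (25.3 ± 0.663) and *Mertk* (24.5 ± 0.791) overlapped.

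**Figure D3:**
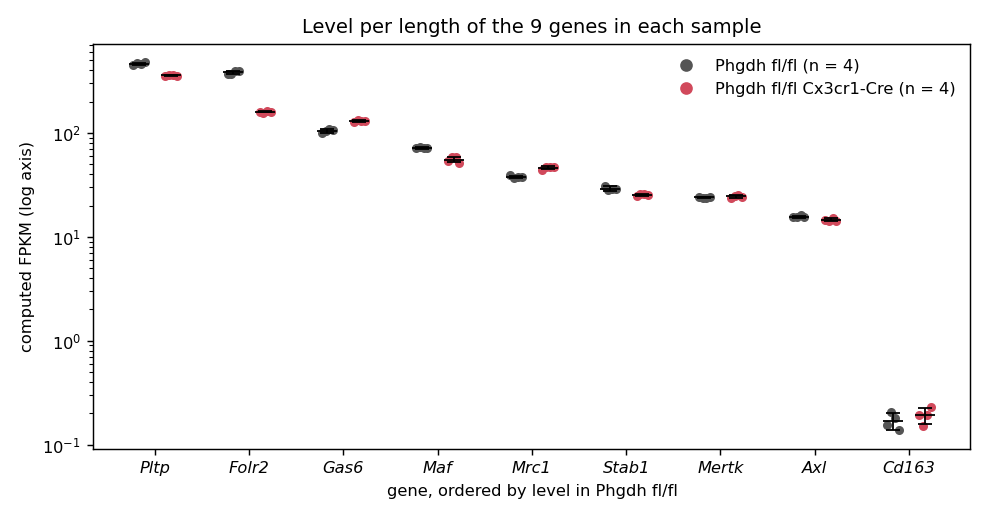
FPKM computed from the reads (vertical log axis) of the 9 genes in each sample, with the mean and 1 SD (n = 4). The levels span from 464 for *Pltp* to 0.169 for *Cd163* in *Phgdh* fl/fl TEMs, and *Folr2* shows the widest gap between the genotypes.

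Other genes of the same processes, none of them members, were tested in lists. Of the receptors and bridging proteins of efferocytosis, 21 of 27 were tested. At a limma adjusted p under 0.05, 14 fell and 2 rose, with a median log2 fold change of -0.11. Over all tested genes, 20.3% passed lower and 20.8% higher with the Cre. This list too was chosen with earlier results of these data known, so that no direction is read from its counts. The genes of the list that rose were *Mfge8* and *Itgb3*. *Mfge8* had 6648, 6629, 6425 and 6736 normalized counts in *Phgdh* fl/fl TEMs and 10324, 9639, 9391 and 10233 in *Phgdh* fl/fl *Cx3cr1*-Cre TEMs (log2 fold change 0.58, SE 0.029, limma adjusted p = 1.5e-12). *Itgb3*, the β3 integrin chain that pairs with αV, had 369, 300, 292 and 308 in *Phgdh* fl/fl TEMs and 1097, 1038, 953 and 1056 in *Phgdh* fl/fl *Cx3cr1*-Cre TEMs (log2 fold change 1.71, SE 0.066, limma adjusted p = 4.7e-14). Its partner *Itgav* fell by 0.26 on the log2 scale (SE 0.036, limma adjusted p = 4.1e-06).

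*Pros1*, which encodes protein S, went the other way to *Gas6*. It fell from 2891 to 2347 normalized counts on average (log2 fold change -0.30, SE 0.031, limma adjusted p = 1.3e-07), so that in FPKM *Gas6* over *Pros1* was 6.42 ± 0.246 in *Phgdh* fl/fl TEMs and 9.71 ± 0.177 in *Phgdh* fl/fl *Cx3cr1*-Cre TEMs (SD, n = 4 each). The genes of complement C1q, which opsonizes dying cells, fell together, *C1qa* by 0.29, *C1qb* by 0.22 and *C1qc* by 0.21 on the log2 scale. The other falls among the largest 10 differences of the list were those of the scavenger receptor *Cd36* (-0.45), of *Cd47* (-0.22), which signals against uptake, and of the phosphatidylserine-binding *Anxa5* (-0.16). *Adam17*, the protease that sheds MERTK and AXL from the surface, had a log2 fold change of 0.028 (limma adjusted p = 0.354), which passed with quantile normalization (0.071, adjusted p = 0.00848).

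Genes of engulfment and of the phagosome differed by little. Of all tested genes, 41.0% passed the threshold in either direction. Of 15 tested, 7 fell and 4 rose (median log2 fold change -0.022), and the largest differences were those of the GTPase *Rac1* (-0.15), the kinase *Ptk2* (-0.15), the exchange factors *Vav1* (-0.14) and *Vav3* (-0.11), and *Dock1* (0.12), a partner of ELMO proteins. Of 9 genes of LXR and lipid efflux, 5 fell and 1 rose (median -0.074). *Apoe*, which carries lipid out of the macrophage, had a mean of 148761 ± 4919 normalized counts in *Phgdh* fl/fl TEMs and 94831 ± 3756 in *Phgdh* fl/fl *Cx3cr1*-Cre TEMs (SD, n = 4 each; log2 fold change -0.65, SE 0.029, limma adjusted p = 3.2e-13). *Lpcat3*, a phospholipid-remodeling enzyme, fell by 0.25 and *Rxra*, the partner of LXR, rose by 0.23 on the log2 scale. *Abca1* (-0.11) and *Srebf1* (-0.092) passed but no longer did when the spread was modelled without its trend on expression, and *Srebf1* also lost its call with scaling to total reads (limma adjusted p = 0.0756) and with any of 4 samples left out, replicates 1 and 2 of *Phgdh* fl/fl and replicates 1 and 4 of *Phgdh* fl/fl *Cx3cr1*-Cre TEMs (0.0713 to 0.106). Neither *Abcg1* (log2 fold change -0.039, limma adjusted p = 0.214) nor the LXRα gene *Nr1h3* (0.051, limma adjusted p = 0.352) passed.

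Resident-like genes other than the members differed in both directions. Of 23 in the list 16 were tested, and 8 fell, 3 rose and 5 did not pass (median log2 fold change -0.090). Of all tested genes, 20.3% passed lower and 20.8% higher with the Cre. The genotypes did not overlap in 9 of the 16, and in 36.7% of all tested genes. The list was chosen with earlier results of these data known, so that no direction is read from these counts. Among those that fell were the prostaglandin-degrading *Hpgd* (-0.70), the transglutaminase *F13a1* (-0.70), the carbonyl reductase *Cbr2* (-0.47), *Pf4* (-0.42), the lectin *Clec10a* (-0.41), the endocytic adaptor *Dab2* (-0.30) and the growth factor *Igf1* (-0.12), which no longer passed with quantile normalization (-0.027, limma adjusted p = 0.259). *Wfdc17* rose by 0.33 on the log2 scale. *Slco2b1*, an organic anion transporter, was nearly silent in *Phgdh* fl/fl TEMs with 7.44, 4.6, 5.17 and 4.77 normalized counts and reached 78.8, 81.1, 81.3 and 80.7 in *Phgdh* fl/fl *Cx3cr1*-Cre TEMs (log2 fold change 3.67, SE 0.23, limma adjusted p = 6.5e-11). *Slco2b1* lies on chromosome 7 as well, from 99657804 to 99711340, within 5 Mb of *Folr2*. *Selenop* had a log2 fold change of -0.062 (limma adjusted p = 0.155), which passed without replicate 1 of *Phgdh* fl/fl TEMs (-0.087, adjusted p = 0.0361). *Cd36*, *Clec10a* and *Ccr2* are named by the study for these same samples and are no independent evidence of a direction.

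The genes of other macrophage states moved in both directions, where 20.8% of all tested genes passed higher and 20.3% lower with the Cre. Of 8 genes of TREM2 lipid-associated macrophages, which are set against FOLR2 macrophages in tumors, 4 rose and 2 fell (median log2 fold change 0.056). *Fabp5*, a fatty acid-binding protein, rose by 0.57, *Gpnmb* by 0.36 and *Ctsd* by 0.12, which overlapped between the genotypes and did not pass with eBayes without trend (limma adjusted p = 0.0512), while *Trem2* itself changed by -0.16 and the lipase *Lpl* by -0.30 on the log2 scale. Of 7 tested monocyte-like genes, 3 fell and 1 rose (median -0.36), namely *Ccr2* (-0.86), *S100a4* (-0.40), *Thbs1* (-0.18) and *Il1b* (0.62). Of 7 tested scavenger and lectin receptors, 3 fell and 3 rose (median 0.089). The largest of these were *Cd5l*, a secreted protein of resident macrophages (-0.73), *Marco* (0.47), *Ly75* (0.45), *Scarb2* (-0.16) and *Msr1* (0.15).

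The small Maf genes *Mafg* (log2 fold change 0.026), *Maff* (0.052) and *Mafk* (0.054), whose products are partners of BACH proteins, did not pass the threshold. Of the 6 genes tested in the list of Maf family and Bach genes, *Bach2* (log2 fold change 1.03, SE 0.30, limma adjusted p = 0.00959) and *Bach1* (0.070, limma adjusted p = 0.0483) rose. *Bach2* had means of 11.1 and 22.7 normalized counts, and *Bach1* did not pass in 9 of 17 other settings. Among the genes that TAM receptors are known to regulate, 1 of the 4 tested rose and 1 fell, and the one that rose was *Socs3* (0.47). The share of all tested genes that passed, beside which the counts of these lists stand, was 41.0%.

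**Figure D4:**
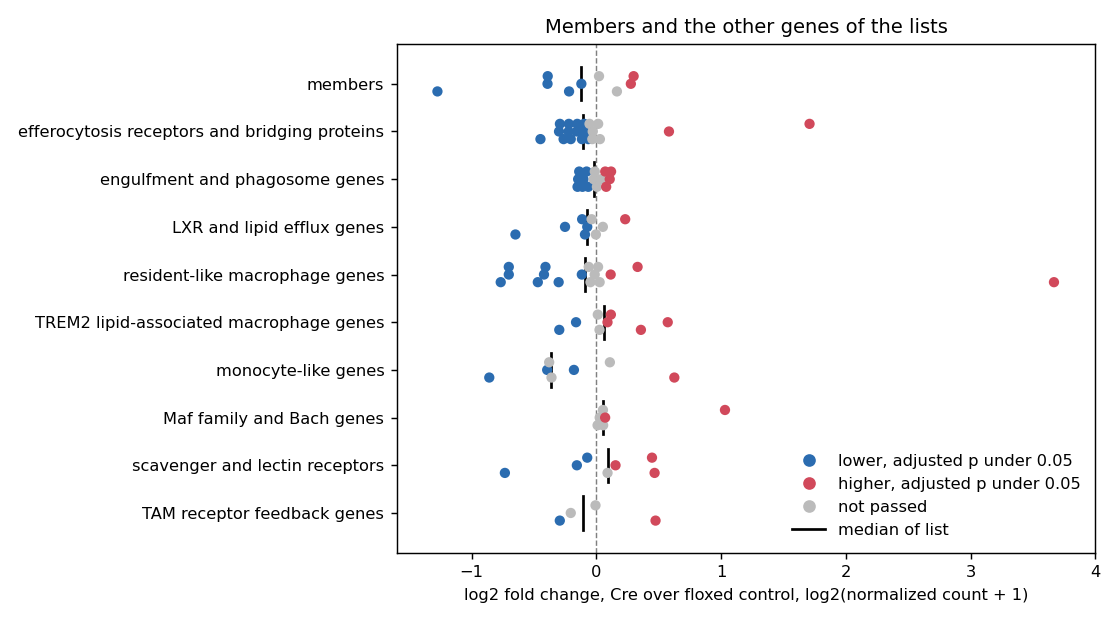
Log2 fold change of *Phgdh* fl/fl *Cx3cr1*-Cre over *Phgdh* fl/fl TEMs (horizontal axis) of each tested gene, by list. Blue and red points had a limma adjusted p under 0.05, the black line is the median of the list and the dashed line the median of all tested genes. The lone point at 3.67 is *Slco2b1*, and the lowest point among the members is *Folr2* at -1.28.

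The profile of *Folr2* over the 8 samples was among the closest to those of *Odc1*, *Slc25a20*, *Plin2* and *Trim12a*, with Pearson correlations between 0.997 and 0.999 on the log2 scale. The samples fall apart by genotype and share their libraries, so that these values mostly restate the difference between the genotypes. The log2 fold changes of these genes lay between -0.91 and -0.45, and *Trim12a* lies on chromosome 7 from 104299894 to 104315466.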

How the data were processed

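RNA of 4 samples of *Phgdh* fl/fl TEMs and 4 of *Phgdh* fl/fl *Cx3cr1*-Cre TEMs was sequenced by the authors in single-end mode with a strand-keeping kit. Per the labels and the paper, reads were mapped to mm10 with TopHat2 and counted with HTSeq 0.6, and the genotypes were compared with DESeq2. The authors deposited a signal per gene and sample, which is named FPKM but is a read count divided by a size factor: 100% of the 144353 values above 0 gave whole reads within 0.001. The deposited mean per gene is in the same signal unit. The deposited table also holds the authors' log2 fold change with its error, a score (the Wald statistic), and a p-value, none of which was used.

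Genotypes were compared with limma 3.58.1 (R 4.3.3; eBayes with trend, two-sided) on the log2 of the normalized count + 1, for all 13629 genes whose mean reached 10, with Benjamini-Hochberg adjustment over all of them. FPKM was computed from the reads and GENCODE M21 exon lengths (18629 of 18635 genes found). Symbols missing for 3602 genes were looked up by gene ID and found for 3596. Alternatives were a pseudocount of 0.1, no filter, a mean of at least 100, quantile normalization, scaling to total reads, eBayes without trend, edgeR 4.0.16 and DESeq2 1.42.0 on the whole reads, a replicate block, and each sample left out. The members, lists, motifs and tests were chosen with earlier results of these data known. Named genes were the members, *Phgdh*, in each list the genes passing with the largest differences (up to 10 for the efferocytosis and resident-like lists and 5 for the others), genes named for their role, passing genes near *Folr2*, and the 5 most like *Folr2*. Some genes named by this rule are not reported here. The study calls the samples biologically independent, and the labels do not say from which mice they came. The limma p-values set the difference between the genotypes against the spread between samples of a genotype. Whether that is a spread between mice is not known. No sequencing batch is named. The fits were checked on simulated counts. Precision of genes with few reads is set by counting.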

Additional observations from a re-analysis of the deposited data

Results flagged for a closer look

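1 of 20 groups of 4 samples checked for a sample far from the others had one, and chance alone flags about 1 in 20. *Axl* in replicate 3 of *Phgdh* fl/fl TEMs had 3539 normalized counts, while the other 3 samples lay between 3359 and 3384.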

How the results depend on the processing

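The 9 genes kept their direction in every setting run (*Cd163* was not tested with a mean of at least 100). Over these settings the log2 fold change lay between -1.29 and -1.24 for *Folr2*, -0.41 and -0.34 for *Pltp*, -0.42 and -0.33 for *Maf*, -0.24 and -0.19 for *Stab1*, -0.14 and -0.10 for *Axl*, 0.26 and 0.30 for *Mrc1*, 0.27 and 0.33 for *Gas6*, 0.0058 and 0.039 for *Mertk*, and 0.068 and 0.27 for *Cd163*. Genes passing over the whole table numbered 5594, and between 4930 and 5608 in the other settings, with 5608 by edgeR and 5066 by DESeq2 on the whole reads. With each sample left out in turn they numbered 4966 to 5917, and the ratio of *Phgdh* was 0.208 to 0.268. Of the LXR and lipid efflux genes, 6 passed, and 3 with eBayes without trend. Of the Maf and Bach genes, 2 passed, and 1 with no filter, a mean of at least 100, eBayes without trend, edgeR or DESeq2, and 1 to 2 with a sample left out.

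The replicate numbers were not taken to pair the samples. The deviations of same-numbered samples correlated at 0.063, 0.098, 0.126 and 0.078, all positive but not all over 0.1. Between differently numbered samples of the genotypes the correlations ran from -0.124 to 0.135, and most were negative. Such small values, with the highest in a differently numbered pair, cannot decide whether the numbers pair the samples. With the replicate block 5597 genes passed. Depth limits *Cd163*, *Folr1*, *Bach2* and *Slco2b1*, which had few reads.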
